A study of Mus musculus with 8 samples.

Results

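Whole lungs of mutant female mouse embryos were compared with those of control females across all genes, from 2 RNA sequencing libraries a side. Both groups were of C57BL background and at E17.5, late in gestation, when the distal lung tubules are turning into air sacs. Mutant embryos expressed TGF-β receptor 1 in a constitutively active form, and the labels place the activation of the pathway in the lung epithelium. Controls are labelled only as control, and the sources used here do not say whether they carried any of the alleles used. Nor do they name the promoter that drove the receptor, the site of its insertion or the share of epithelial cells that expressed it. The members were the 4 female libraries out of 8 in the series. The male libraries only added to the estimate of the spread, except in the fits with a replicate block described below. The female libraries are called control 1, control 2, mutant 1 and mutant 2 after the numbers in their labels. Of 19150 genes with deposited counts, 18164 passed the filter on low counts and were tested.

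TGF-β ligands are stored in the matrix in a latent form and, once released, bind a type II receptor that phosphorylates the type I receptor, the product of Tgfbr1. The type I receptor then phosphorylates SMAD2 and SMAD3, which enter the nucleus with SMAD4 and switch target genes on or off. Among well known targets are the inhibitory Smad7, the corepressor genes Ski and Skil and the cell cycle inhibitor gene Cdkn1a. In the developing lung the pathway restrains branching and epithelial growth and promotes matrix production and smooth muscle differentiation.

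SMAD3 and SMAD4 bind the 5-base sequence CAGAC, read as GTCTG on the other strand, known as the SMAD box. Because 14 genes were higher in the mutant females in one of the fits described below, the 250 bases before their starts were searched for it in RefSeq promoters of GRCm38.p6, where 11 of the 14 genes were found. At least 1 match lay in 9 of the 15 windows of these genes, beside 42.2% of the 32851 windows of all genes. Several of the windows with a match belonged to the same gene, Gramd2, and some of these overlapped. Counted by gene, 6 of the 11 had a window with a match, beside 45.8% of the 27025 genes in the table. The windows of Cym, Cd55 and Igfbp7, genes that were higher in both mutant libraries and whose windows overlap no annotated exon, are shown in lower case on the gene's strand, with each match in capitals. They lie at chr3:107221733-107221982, chr1:130462745-130462994 and chr5:77408046-77408295, each on the minus strand.
Cym: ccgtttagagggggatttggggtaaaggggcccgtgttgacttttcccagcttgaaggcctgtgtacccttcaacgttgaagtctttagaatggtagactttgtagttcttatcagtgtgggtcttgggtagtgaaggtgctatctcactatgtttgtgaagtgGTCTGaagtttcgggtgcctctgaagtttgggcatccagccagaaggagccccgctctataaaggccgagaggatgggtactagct
Cd55: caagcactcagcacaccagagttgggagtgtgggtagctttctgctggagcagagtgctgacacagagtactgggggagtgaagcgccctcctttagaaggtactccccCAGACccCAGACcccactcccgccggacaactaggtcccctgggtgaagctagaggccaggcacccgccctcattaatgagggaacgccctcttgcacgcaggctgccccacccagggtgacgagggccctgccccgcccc
Igfbp7: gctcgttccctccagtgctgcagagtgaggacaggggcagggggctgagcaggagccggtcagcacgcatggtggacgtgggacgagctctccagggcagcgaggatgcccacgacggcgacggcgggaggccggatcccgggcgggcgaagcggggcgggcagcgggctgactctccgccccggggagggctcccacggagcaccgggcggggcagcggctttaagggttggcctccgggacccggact
The window of Cym held 1 match, that of Cd55 held 2 and that of Igfbp7 held none. A match of these letters is a description and does not show a bound site.

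The 4 libraries held 17561012, 17841733, 18606131 and 18652245 reads in genes, in the order control 1, control 2, mutant 1, mutant 2, and values below keep this order unless stated. Epithelial genes (Nkx2-1, Epcam, Sftpc), mesenchymal genes (Tcf21, Pdgfra) and endothelial genes (Pecam1, Cdh5) had at least 3496 reads in every library, while the liver gene Alb had 25 to 37 reads. The oesophagus gene Krt4 had 18, 25, 11 and 54 reads, highest in mutant 2. Of 6 oesophagus and skin genes tested, 3 were higher in mutants and 3 were not. Control 1 stood apart in genes of heart muscle: Myh6, the cardiac myosin heavy chain gene, had 73 reads there against 752, 556 and 776 in the others. Xist, the RNA that silences an X chromosome in females, was at 1554, 1575, 1419 and 1819 CPM (each count divided by the scaled library size), and the Y-linked gene Uty had 0 reads in all 4. Over 12793 genes the Pearson correlation of log2 CPM was 0.994 between control 2 and mutant 2, 0.989 between control 1 and each mutant and 0.971 between control 2 and mutant 1. It was 0.984 between the controls and 0.980 between the mutants, a description across genes that are not independent replicates. Control 2 and mutant 1 had 414 genes differing by more than 2-fold, control 1 had 78 against mutant 1 and 69 against mutant 2, and control 2 had 33 against mutant 2. Whether each library is a separate embryo is not stated in the labels, and the p-values reflect the spread between libraries, part or all of which may be technical.

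No gene passed the test in mutant against control females. With edgeR's quasi-likelihood test on 4 group means, 0 of 18164 genes had a Benjamini-Hochberg adjusted p under 0.05 in either direction, and 290 genes (1.6%) had an unadjusted p under 0.05. When the replicate number was added as a block, so that library 1 was compared with library 1 and library 2 with library 2, 14 genes rose (0.0771% of those tested), none fell, and 1102 genes (6.07%) had an unadjusted p under 0.05. These 14 genes were Krt17, Cym, Apob, Nt5e, Slc39a2, Wipf3, Batf, Igfbp7, Agt, Rtkn2, Dennd3, Fbln5, Cd55 and Gramd2. In fits that held the male libraries, the block was shared by all 4 groups, so those libraries also took part in estimating it. In a fit of the 4 female libraries alone with the block, 107 genes rose (0.612%) and 46 fell (0.263%), among them all 14. That fit leaves 1 residual degree of freedom per gene before edgeR shares the spread across genes. Among all genes tested, both mutant libraries lay above both controls in 11.3% and below both in 10.6%, 49.3% had a log2 difference above 0 and 50.7% below it, and the median was -0.00. Adjusted p-values below come from edgeR's quasi-likelihood test with the replicate block over all 8 libraries, unless another fit is named, and log2 differences with their standard errors (SE) come from the fit without it. The block was chosen from these same counts, so its p-values may not hold their stated error rate.

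**Figure D1:**
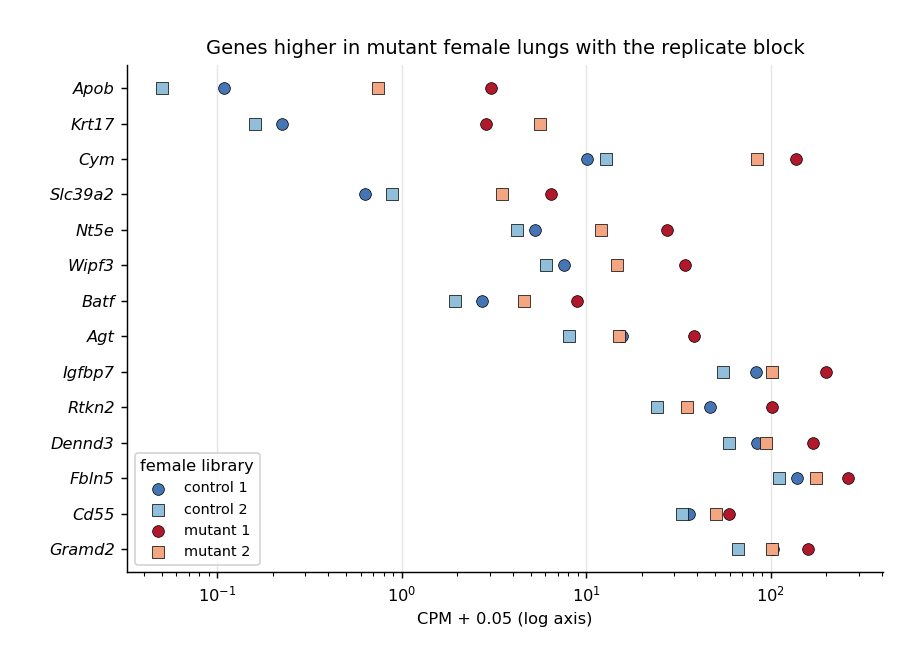
CPM plus 0.05 on a log axis for the 14 genes called with the replicate block, one point per female library, controls in blue and mutants in red. In 11 of the 14 genes both mutants lay above both controls, while in Agt, Rtkn2 and Gramd2 mutant 2 lay at or below control 1.

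Krt17, a keratin gene of basal and injured epithelium (ENSMUSG00000035557, GRCm38 chromosome 11, 100256217 to 100261029, minus strand), was counted in 3, 2, 52 and 105 reads. It was close to absent in both controls and present in both mutants, and was the one gene of the 14 that was higher in mutant 2 than in mutant 1. Its log2 difference was 4.82 ± 0.82 (SE), with an adjusted p of 0.00270, and the ratio of summed reads scaled to library size was 29.7 (95% exact interval 12.4 to 92.6, covering counting error only). Per length it stayed low, at 1.81 and 3.57 RPKM (reads scaled to gene length and library size) in the mutants. Other basal cell genes had no common direction. Trp63, the basal cell master regulator, had 5, 8, 8 and 21 reads, and Krt15, another basal keratin gene, was at 45.6, 27.8, 9.55 and 21.2 CPM, lower in both mutants. Of 13 basal cell genes tested, 6 were higher and 7 lower, with a median log2 difference of -0.06. Mutant 2 was also the highest library in the oesophagus gene Krt4, and the part of other tissue in the Krt17 reads was not tested.

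Cym, which encodes the milk-clotting protease chymosin (ENSMUSG00000046213, GRCm38 chromosome 3, 107211293 to 107221732, minus strand), was at 9.99, 12.7, 136 and 83.7 CPM. Both mutants were far above both controls, with means of 110 ± 37.0 and 11.3 ± 1.91 CPM (SD, n = 2 each). Its log2 difference was 3.27 ± 0.48, with an adjusted p of 0.00567, and it had the smallest unadjusted p of all genes without the block. Apob, the structural protein of lipoproteins of liver and gut, was counted in 1, 0, 55 and 13 reads, and the ratio of summed reads scaled to library size was 64.2 (95% exact interval 11.1 to 2574; adjusted p = 0.00567). Mutant 1 held most of its reads, and both controls were at or next to 0. Of 46 gut and liver genes listed, 11 were tested, and the members other than Cym and Apob lay close between the groups. Alb was at 1.45, 1.44, 1.57 and 1.96 CPM and Vil1, a protein of the intestinal brush border, at 0.755, 0.554, 0.868 and 0.795 CPM. The median log2 difference of the 11 was 0.29, and both mutants lay above both controls in 5, beside 11.3% of all genes, including Alb and Vil1, whose log2 differences of 0.29 ± 0.32 and 0.34 ± 0.38 were within their error. Cym and Apob were known from earlier results of these data when the list was written, so this count is no independent support. With 1 and 0 reads in the female controls, Apob could pass the filter on low counts only through other libraries.

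Nt5e, which encodes CD73, the surface enzyme that makes adenosine from AMP (ENSMUSG00000032420, GRCm38 chromosome 9, 88327197 to 88372092, plus strand), was at 5.23, 4.16, 27.2 and 12 CPM. Both mutants were above both controls, and mutant 1 was well above mutant 2. Its log2 difference was 2.06 ± 0.42, with an adjusted p of 0.00270. Entpd1 encodes CD39, the enzyme that makes the AMP on which CD73 acts, and was at 59.9, 54.0, 80.6 and 91.8 CPM. It too was higher in both mutants but was called only in the fit of the female libraries alone with the block (log2 difference 0.60 ± 0.23; adjusted p = 0.554, and 0.00174 in that fit). Slc39a2, a zinc importer gene, was at 0.581, 0.832, 6.4 and 3.44 CPM, with a log2 difference of 2.78 ± 0.54 and an adjusted p of 0.0368. Wipf3, an actin regulator gene of the WIP family, was at 7.55, 5.99, 34.1 and 14.6 CPM, with a log2 difference of 1.85 ± 0.43 and an adjusted p of 0.0266. In Slc39a2 and Wipf3 the controls were close together and mutant 1 was the highest library.

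Igfbp7, a secreted protein that binds insulin-like growth factors, was at 83.2, 54.9, 198 and 101 CPM, above both controls in both mutants (log2 difference 1.12 ± 0.39; adjusted p = 0.00270). Fbln5, which encodes fibulin 5, a scaffold for elastic fibre assembly, was at 138, 111, 263 and 175 CPM (0.81 ± 0.22; adjusted p = 0.00579). Cd55, the complement decay-accelerating factor, was at 36.1, 33.0, 59.6 and 50.2 CPM (0.67 ± 0.14; adjusted p = 0.0330). In Cd55 the gap between the groups, from 36.1 to 50.2 CPM, was wider than the gap within either group. Batf, a transcription factor of the AP-1 family best known in lymphocytes, was at 2.67, 1.89, 8.90 and 4.56 CPM, and Dennd3, an exchange factor for Rab proteins, at 84.5, 58.9, 170 and 94 CPM. Their adjusted p-values were 0.0463 and 0.0462. Agt, the angiotensinogen gene, was at 15.5, 8.04, 38.0 and 15 CPM, Rtkn2, a gene of type 1 alveolar cells, at 46.5, 24.0, 101 and 35.2 CPM, and Gramd2 at 103, 66.5, 159 and 102 CPM. In these 3 genes the groups overlapped, and the adjusted p-values of 0.0266, 0.0463 and 0.0266 rested on the comparison within each numbered pair.

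The calls depended on single libraries. With the block, leaving out mutant 2 kept 10 of the 14 calls, leaving out control 2 kept Igfbp7 and Nt5e, and leaving out control 1 or mutant 1 kept Krt17 alone. Without the block, limma-voom called none (275 genes, 1.51%, at an unadjusted p under 0.05), edgeR's likelihood ratio test called 8 genes higher (0.044%), including Krt17, Cym, Nt5e, Apob, Slc39a2 and Wipf3, while DESeq2 called 5 of these 6, all but Apob, as higher (0.0275%) and 1 gene, Pgc, as lower (0.00551%).

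**Figure D2:**
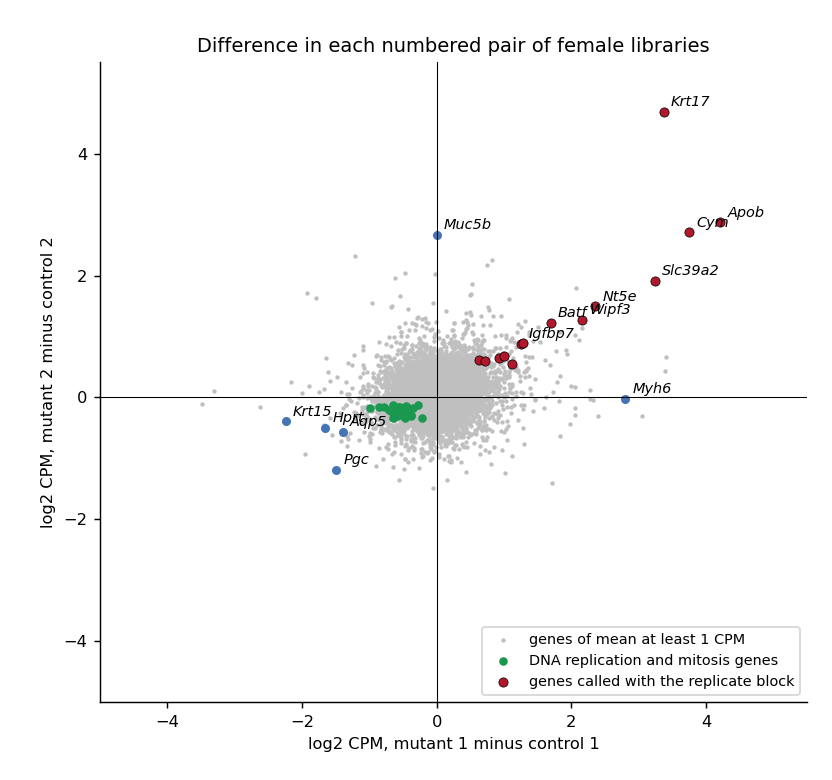
Log2 CPM of mutant 1 minus control 1 (horizontal) against mutant 2 minus control 2 (vertical), one point per gene with a mean of at least 1 CPM, plus Apob. The 14 genes called with the replicate block (red) were picked from data that include these pairs, and were higher in both. The 38 DNA replication and mitosis genes (green) were lower in both, and Muc5b and Myh6 differed in 1 pair only.

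The pathway itself was then read by role. Among the ligands, Tgfb2 was at 191, 209, 139 and 170 CPM, below both controls in both mutants (-0.37 ± 0.13; adjusted p = 0.366). Tgfb1 was at 31.9, 35.8, 40.3 and 31.8 CPM and Tgfb3 at 42.8, 47.7, 43.7 and 40.7 CPM, with overlapping groups in both genes. Among genes listed with the ligands, Ltbp2, named for the latent TGF-β binding protein family and found on elastic fibres, was at 146, 146, 272 and 177 CPM (0.62 ± 0.22; adjusted p = 0.399, and 0.00706 in the fit of the female libraries alone with the block). Ltbp3 was at 289, 262, 481 and 283 CPM, and Itgb6, the β6 integrin chain with which epithelial cells release active TGF-β, at 73.4, 50.9, 106 and 61.3 CPM. In Ltbp3 and Itgb6 mutant 2 lay below control 1, so their groups overlapped. Over the 18 ligand and activation genes tested, 10 were higher, none was called with the block and the median log2 difference was 0.04.

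Tgfbr1, the gene of the receptor that was activated, was at 88.6, 98.6, 80.5 and 92.3 CPM, with overlapping groups and a log2 difference of -0.12 ± 0.12. It therefore does not check the genotype labels, and the sources used here do not say whether reads of the introduced receptor were counted under it. Tgfbr2, the type II receptor gene, was at 259, 244, 288 and 252 CPM, and Smad3 at 108, 96.9, 130 and 99.7 CPM. Of 23 receptor, SMAD and inhibitor genes tested, 16 were higher, the range was -0.12 to 0.40, the median 0.10, and none was called. Ski had the highest of these differences, at 179, 184, 270 and 207 CPM (0.40 ± 0.15; adjusted p = 0.468). Smad7, the inhibitory SMAD gene, was at 52.6, 45.8, 76.0 and 47.8 CPM, high in mutant 1 only.

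Among 34 SMAD3 target genes tested, 22 were higher in mutants, 18 were higher in both numbered pairs and 5 lower in both, beside 25.9% and 26.1% of all genes. Both mutants lay above both controls in 5 (Nt5e, Ltbp2, Ski, Skil and Mmp2), beside 11.3% of all genes. They lay below both in 1, Acta2, beside 10.6% of all genes. The median was 0.10, and Nt5e was the only member called with the block, beside 0.0771% of all genes. Nt5e was known from earlier results of these data when the list was written, so these counts are no independent support. Cdkn1a, which encodes the cell cycle inhibitor p21, was at 22.2, 10.4, 57.3 and 21.3 CPM (1.27 ± 0.54; adjusted p = 0.261, and 1.14e-06 in the fit of the female libraries alone with the block). Mutant 1 was highest and control 2 lowest in Cdkn1a, and its groups overlapped. Ctgf, a matricellular growth factor gene, was at 38.2, 30.3, 51.2 and 37.2 CPM, and Tgfbi, a matrix protein gene, at 319, 303, 402 and 318 CPM. The collagen gene Col1a1 was at 1092, 1254, 1160 and 1150 CPM, and the smooth muscle actin gene Acta2 at 390, 362, 335 and 356 CPM. The list's median was -0.03 without mutant 1. In whole lung, fewer cells of a type and less RNA per cell cannot be told apart, and a change within the epithelium is diluted by the RNA of other cells.

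**Figure D3:**
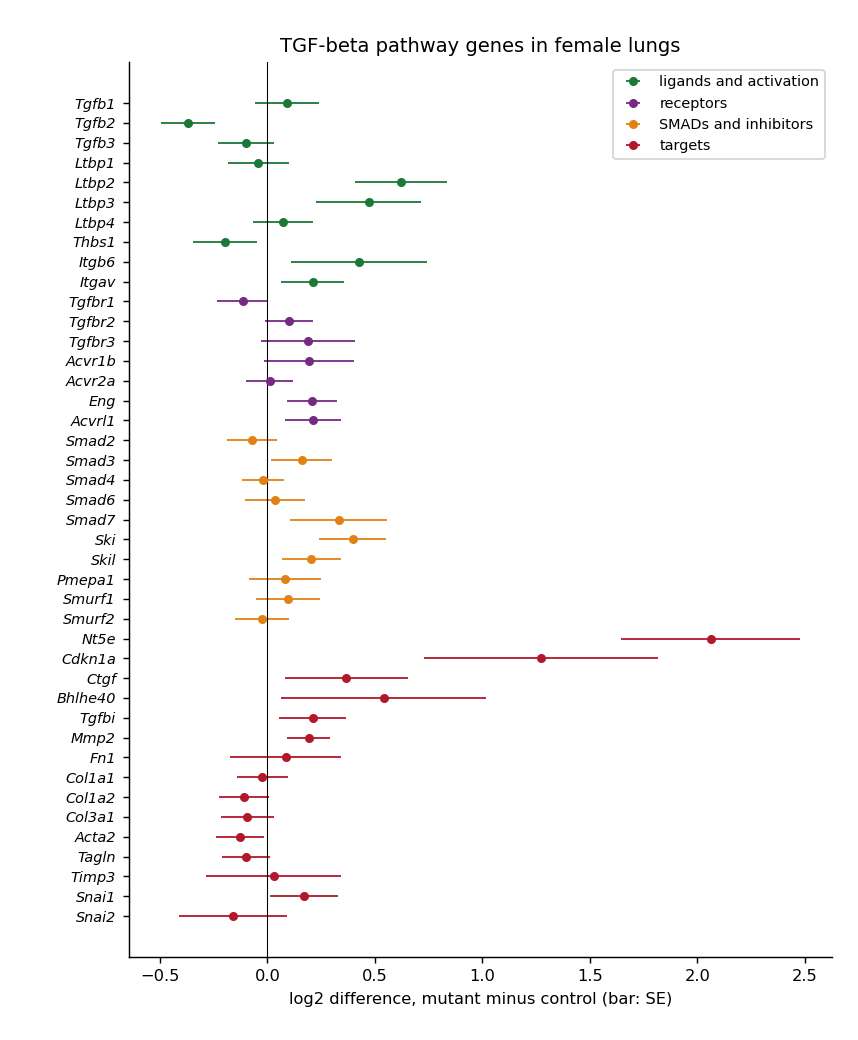
Log2 difference between mutant and control females for 42 chosen pathway genes by role, points from the fit of 4 group means and bars of 1 SE. Nt5e stands at 2.06 and Cdkn1a at 1.27, and Tgfb2 at -0.37.

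No gene fell in the fits over all 8 libraries with edgeR, and 46 fell in the fit of the female libraries alone with the block, of which 17 had both mutants below both controls. Pgc, which encodes the aspartic protease progastricsin, made in the lung by type 2 cells, was at 25.6, 24.2, 9.0 and 10.6 CPM. Its replicates were close and its groups far apart, at 24.9 ± 0.941 and 9.80 ± 1.1 CPM (SD, n = 2 each), and its log2 difference was -1.34 ± 0.31. Its adjusted p was 0.162 with the block, 9.00e-07 in the female libraries alone with the block and 0.0218 with DESeq2 without the block. Slc6a14, an amino acid transporter gene, was at 78.0, 51.6, 38.0 and 41.3 CPM (-0.71 ± 0.21; adjusted p = 0.202, and 0.00290 in the female libraries alone with the block). Cacna1e, a calcium channel gene, was at 6.86, 6.54, 1.68 and 3.39 CPM, and Cdh8, a cadherin gene, at 20.2, 19.1, 8.24 and 12.8 CPM. In both, the controls nearly coincided and both mutants lay below them, with adjusted p-values of 0.108 and 0.160, and 0.00137 and 0.000978 in the female libraries alone with the block. Aqp5, a water channel of type 1 alveolar and airway cells, was at 19.2, 7.10, 7.21 and 4.77 CPM, high in control 1, with an adjusted p of 0.202 and of 0.00186 in that fit. Krt15 had a log2 difference of -1.25 ± 0.42 (adjusted p = 0.324, and 0.00210 in the female libraries alone with the block). Hprt, the X-linked purine salvage enzyme gene, was at 64.2, 61.0, 20.3 and 43.2 CPM. The mutants were below both controls and more than 2-fold apart from each other, and its adjusted p of 0.979 became 0.000309 in the female libraries alone with the block.

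Among the higher genes of that same fit, Pkhd1, the gene of recessive polycystic kidney disease, was at 7.96, 7.37, 21.8 and 14.1 CPM (1.23 ± 0.28; adjusted p = 0.115, and 3.31e-05 in that fit). Tub, a gene of ciliary trafficking, was at 3.95, 5.49, 16.8 and 11.3 CPM (1.57 ± 0.41; adjusted p = 0.253, and 3.31e-05 in that fit). Mfsd2b, which encodes the sphingosine-1-phosphate exporter of red cells and platelets, was at 3.20, 2.99, 8.41 and 6.41 CPM and was called by the likelihood ratio test (adjusted p = 0.00489) and not with the block (adjusted p = 0.0786). In these 3 genes both mutants lay above both controls.

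Type 2 alveolar cells make surfactant. Of 29 entries of their genes tested, 25 were higher in the mutants, beside 49.3% of all genes. In both pairs 21 were higher, beside 25.9%, and the median log2 difference was 0.20. Both mutants lay above both controls in 1 entry (Sftpb, with mutant 2 at 31.85 and control 1 at 31.84 CPM), beside 11.3% of all genes. They lay below both in 3 (Pgc, Slc6a14 and Etv5), beside 10.6%. None of the 29 entries was called with the block over 8 libraries. Sftpb, the surfactant protein B gene, was counted under 2 Ensembl IDs, at 31.8, 23.3, 35.4 and 31.8 CPM (ENSMUSG00000056370) and at 60.2, 43.7, 68.0 and 56.3 CPM (ENSMUSG00000103879). Control 1 and mutant 2 coincided under the first and overlapped under the other, and how shared reads were split between the IDs is unknown, so Sftpb is uncertain. Sftpc, the surfactant protein C gene, was at 7175, 4957, 6830.5 and 5629 CPM. Lyz1, a lysozyme gene, was at 65.9, 17.2, 118 and 43.8 CPM, and Sftpd at 59.8, 20.1, 85.3 and 29.6 CPM. In these 3 genes the libraries numbered 1 were above those numbered 2, and the difference between the numbers was larger than that between the groups. Lyz1, Hc, Scd1 and Sftpd rose, and Pgc and Slc6a14 fell, in the female libraries alone with the block. Of all genes tested in that fit, 0.612% rose and 0.263% fell. The list's median was -0.08 without mutant 1 and -0.06 without control 2.

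Type 1 alveolar cells, the flat cells of gas exchange, showed no common shift, with 11 of 23 genes higher and a median of -0.01. Rtkn2 rose with the block, and in the female libraries alone with the block Col4a3, a basement membrane collagen gene, also rose (110, 69.4, 156 and 86.4 CPM; adjusted p = 0.202, and 0.0398 in that fit) while Aqp5 fell. Sema3a, a guidance factor gene, was at 191, 172, 129 and 145 CPM, below both controls in both mutants (-0.40 ± 0.12; adjusted p = 0.366). Among 36 simple keratin and junction genes, 13 were higher and both mutants lay below both controls in 8, beside 10.6% of all genes. Cldn4, a tight junction gene, was the lowest of these, at 34.7, 29.6, 22.2 and 24.5 CPM (-0.46 ± 0.15; adjusted p = 0.435), and Krt8 was at 348, 287, 276 and 271 CPM. Of 31 lung epithelial transcription factors, 20 were higher with a median of 0.04, and Nkx2-1, the regulator of lung identity, was at 422, 429, 456 and 392 CPM.

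Airway genes differed between the numbered pairs. Of 29 multiciliated cell genes tested 17 were higher, with a median of 0.03. That median was -0.26 in pair 1 and 0.35 in pair 2, and that of 20 club and secretory genes -0.16 and 0.37, beside pair medians of -0.01 and 0.01 over all genes. Foxj1, the regulator of motile cilia, was at 57.5, 40.8, 41.0 and 44.4 CPM, and Scgb1a1, the club cell secretoglobin gene, at 46.2, 13.0, 21.7 and 23.3 CPM, both highest in control 1. Muc5b, a gel-forming mucin gene, was at 0.813, 1.44, 0.814 and 9.75 CPM, and Reg3g, a secreted lectin gene, at 0.407, 0.998, 0.759 and 4.87 CPM. Each was high in mutant 2 alone, with adjusted p-values of 0.471 and 0.428, and 0.00429 and 0.00492 in the female libraries alone with the block. Gmnc, Mcidas and Ccno, which start the multiciliated programme, were the 3 members with both mutants below both controls, beside 10.6% of all genes, and none was called. Mcidas was at 10.8, 9.92, 5.42 and 8.69 CPM (-0.55 ± 0.33). Dnah11, a heavy chain of the ciliary motor dynein, went the other way at 46.1, 37.8, 65.4 and 51.7 CPM (0.48 ± 0.18; adjusted p = 0.215, and 0.0138 in the female libraries alone with the block).

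**Figure D4:**
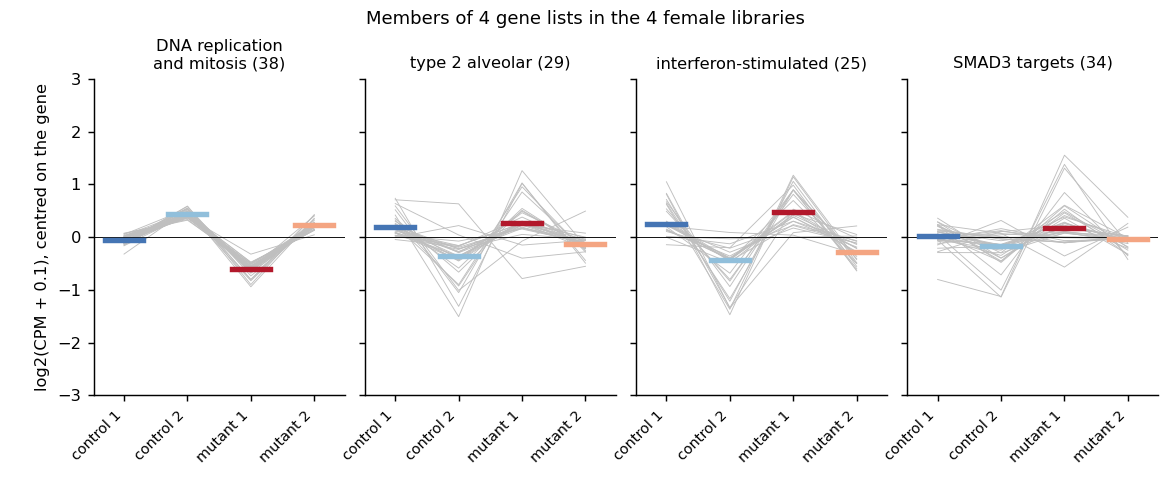
Log2(CPM + 0.1), centred on each gene, in the 4 female libraries for the tested members of 4 gene lists, with thin lines for genes and bars for the list median. In the DNA replication list the bars run from -0.60 in mutant 1 to 0.43 in control 2, and in the other lists the libraries numbered 1 lie above those numbered 2.

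Genes of DNA replication and mitosis were lower in the mutant library of both pairs in 38 of 38 members tested, beside 26.1% of all genes. Their median log2 difference was -0.34, with a narrow range of -0.47 to -0.18, and was -0.56 in pair 1 and -0.19 in pair 2. Top2a, a topoisomerase needed to separate chromosomes, was at 606, 803, 384 and 687 CPM. Mki67, the Ki-67 gene, was at 848, 1218, 605 and 1026 CPM, and Cdk1, the kinase that starts mitosis, at 137, 163, 90.8 and 143 CPM. The order from high to low was control 2, mutant 2, control 1 and mutant 1 in 38 of the 38 genes, so the groups overlapped in each of them, and none was called with the block over 8 libraries. In the female libraries alone with the block 5 members fell, namely Rrm2, Mcm2, Mcm3, Bub1 and Kif11, beside 0.263% of all genes tested in that fit. The controls differed from each other by as much as the groups did. On the centred log2 scale the list's median was -0.06 in control 1 and 0.43 in control 2. It was -0.60 in mutant 1 and 0.23 in mutant 2. Without mutant 1 the list's median log2 difference was 0.00, without control 2 it was -0.08, and without mutant 2 it was -0.80. Of 21 growth arrest and p53 target genes, 12 were higher with a median of 0.06, Cdkn1a being the highest of them.

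**Figure D5:**
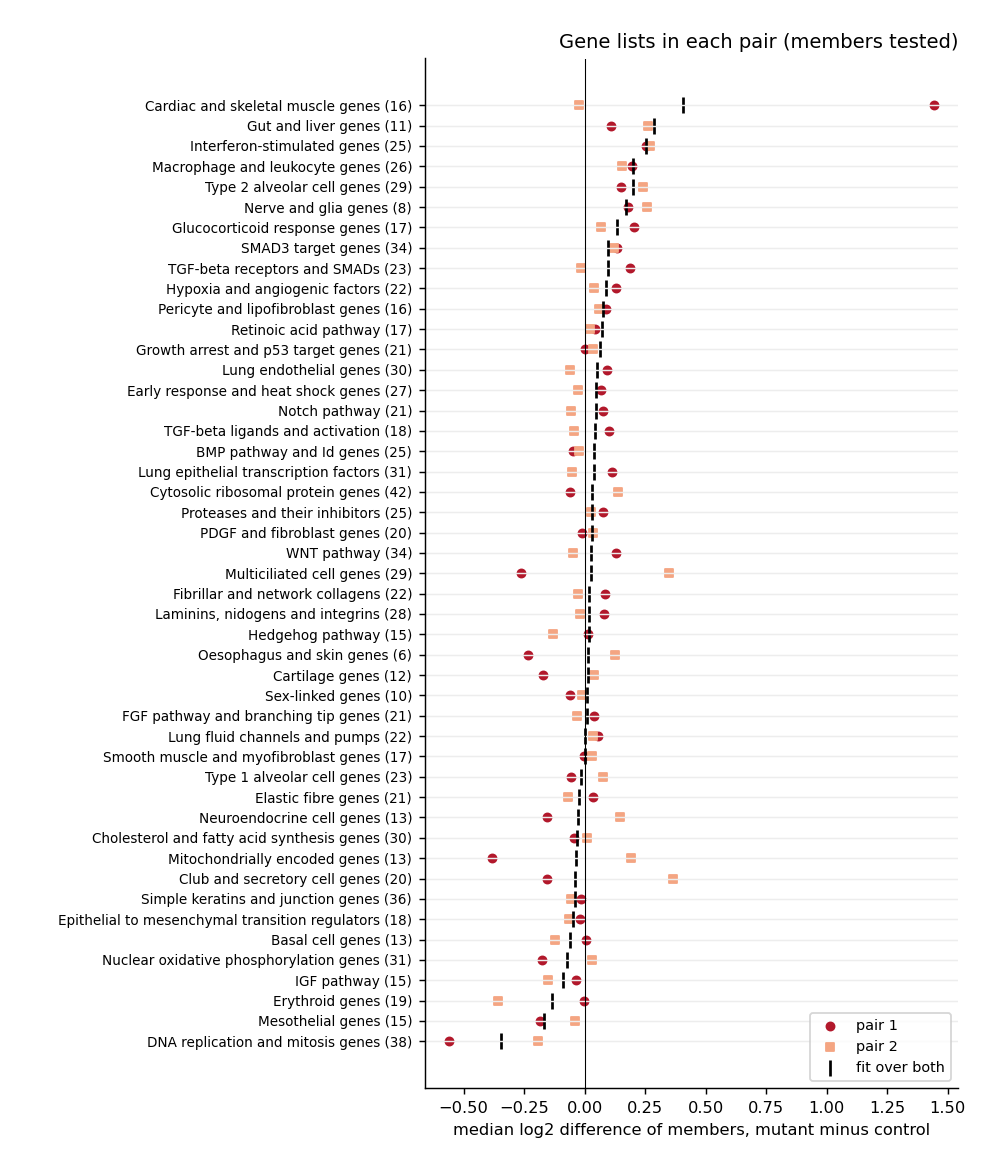
Median log2 difference, mutant minus control, of the tested members of each gene list with at least 5 of them (number in brackets) in pair 1, in pair 2 and in the fit over both. DNA replication and mitosis genes are lowest in the fit at -0.34, and cardiac and skeletal muscle genes are apart in pair 1 at 1.44, where control 1 had few heart reads.

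Blood, immune and other non-epithelial genes were counted in the same way. Of 26 macrophage and leukocyte genes, 20 were higher, both mutants lay above both controls in 6, beside 11.3% of all genes, and the median was 0.20. Cd74, the invariant chain of MHC class II, was at 19.9, 15, 50.8 and 21.0 CPM (1.04 ± 0.49; adjusted p = 0.202, and 0.000522 in the female libraries alone with the block), and C1qc, a complement gene of macrophages, at 12.8, 11.2, 14.7 and 14.3 CPM. The list's median was -0.02 without mutant 1. Of 25 interferon-stimulated genes 23 were higher, with a median log2 difference of 0.25. But on the centred log2 scale the list's median was 0.24 in control 1 and -0.44 in control 2. It was 0.48 in mutant 1 and -0.28 in mutant 2. Ifi44 followed that order of libraries, at 5.81, 1.39, 8.57 and 2.76 CPM. The list's median log2 difference was -0.26 without mutant 1. Of 19 erythroid genes, 2 were higher and both mutants lay below both controls in 7, beside 10.6% of all genes. Among the 7 was Slc4a1, the red cell anion exchanger gene, at 16.3, 24.6, 15.8 and 13.3 CPM. The list's median was -0.14, with -0.00 in pair 1 and -0.36 in pair 2, and became -0.05 without control 2 and -0.43 without control 1. The haem synthesis gene Alas2 had 1215, 1430, 1771 and 897 reads, highest in mutant 1. Mesothelial genes had a median of -0.17, and Msln, the mesothelin gene, was at 208, 96.5, 114 and 80.5 CPM, high in control 1 (adjusted p = 0.202, and 0.00797 in the female libraries alone with the block). Cardiac and skeletal muscle genes had a median of 0.41, which was -0.04 without control 1.

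Mesenchymal and matrix lists had medians near 0, with single genes apart. Of 21 elastic fibre genes, 7 were higher, with a median of -0.02. Both mutants lay above both controls in 4 (Fbln5, Ltbp2, Emilin2 and Mfap2), beside 11.3% of all genes. The 1 member below both, beside 10.6% of all genes, was Efemp1, which encodes fibulin 3. It was at 36.9, 30.0, 25.5 and 26 CPM (-0.38 ± 0.14, adjusted p = 0.478). The fibroblast genes Pdgfra, a growth factor receptor, and Pdgfa, its ligand made by epithelium, were at 308, 264, 433 and 327 CPM and at 70.7, 58.9, 129 and 78.6 CPM, each above both controls in both mutants. Their log2 differences were 0.41 ± 0.16 and 0.68 ± 0.27, with adjusted p-values of 0.324 and 0.304, and 0.0632 and 0.00114 in the female libraries alone with the block. Igf1 was at 170, 182, 101 and 157 CPM (-0.45 ± 0.20; adjusted p = 0.386, and 0.0297 in the female libraries alone with the block), on the opposite side from Igfbp7, and 15 genes of that pathway had a median of -0.09. Rgs5, a pericyte gene, was at 83.3, 89.0, 48.4 and 71.1 CPM (-0.53 ± 0.18; adjusted p = 0.287, and 0.00633 in that fit). It was the lowest of 16 pericyte and lipofibroblast genes tested, of which 13 were higher in mutants, with a median of 0.08. The laminin gene Lama2 was at 89.9, 79.0, 129 and 93.4 CPM. Of 17 smooth muscle and myofibroblast genes 8 were higher with a median of -0.00, and of 30 endothelial genes 23 were higher with a median of 0.05.

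Other signalling lists lay near the median of all genes. The medians of the BMP, WNT, hedgehog, FGF, Notch and retinoic acid lists were 0.04, 0.03, 0.02, 0.01, 0.05 and 0.07, and no member of these 6 lists was called with the block over 8 libraries. In the female libraries alone with the block 1 member, Lgr6, fell (adjusted p = 0.0125), beside 0.263% of all genes tested in that fit. Lgr6, a receptor gene of the WNT pathway, was at 31.8, 30.3, 15.3 and 24.5 CPM (-0.64 ± 0.27), and Notum, which encodes a secreted WNT inhibitor, at 4.65, 3.60, 9.55 and 4.66 CPM (0.78 ± 0.33). Hey1, a Notch target gene, was at 43.4, 41.7, 58.9 and 50.2 CPM (0.36 ± 0.13), and Smad9, a SMAD gene of the BMP branch, at 24.5, 23.1, 35.3 and 27.8 CPM (0.41 ± 0.17). Genes of the oxidative phosphorylation chain, 31 in number, had a median of -0.07 with 3 higher, and 42 cytosolic ribosomal protein genes had a median of 0.03. Reads in mitochondrially encoded genes made up 2.17%, 2.20%, 1.81% and 2.48% of each library. Reads in Lars2 and ribosomal RNA-like genes, a set chosen after its values were seen, made up 0.0969%, 0.0789%, 0.148% and 0.131%, higher in both mutants, and the part of this in the other results was not tested.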

How the data were processed

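Lungs were freed of oesophagus, trachea and bronchi, and their DNase-treated RNA was made into TruSeq v2 libraries, per the labels' protocols. Tools in the submitters' processing notes are STAR 2.5.2b, HTSeq 0.6.1p2, edgeR 3.16.5, Trimmomatic 0.35 and cutadapt 1.13. The sources used here do not give the genome build, the annotation or the treatment of strand and shared reads, and reads of overlapping, antisense or near-identical genes may not be told apart. The authors deposited raw read counts, RPKM values and gene lengths for 19150 genes, per the file headers. The lowest gene total was 28 reads over the 8 libraries, so rarer genes are not used here.

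Tests on the counts used edgeR 4.0.16 (R 4.3.3), with TMM scaling, filterByExpr with a minimum count of 10, 4 group means over 8 libraries, a two-sided quasi-likelihood F test of mutant against control females and Benjamini-Hochberg adjustment at 0.05. An exact permutation of 2 against 2 libraries could not go below a p of 0.333. The replicate number was an alternative block. Same-numbered libraries deviated together, with a correlation across 12793 genes of 0.180 to 0.626 in the 6 pairs of groups, and 0.625 between the female groups. The numbers were therefore taken to pair libraries, from the data, since no label explains them. The block was thus chosen from the same counts it was used to test, and its p-values may not hold their stated error rate. Across the same genes, the mutant minus control differences of pairs 1 and 2 had a correlation of 0.226. Counts of libraries within a group differed by 13.9 and 20.1 times the sampling variance, so each was kept. Fits were also run on simulated counts that held no replicate effect, so they do not check how the block handles libraries that deviate together.

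Gene lists (48, with 1168 symbols and 1028 entries tested) are described by counts and medians. The members and lists were chosen with earlier results of these data known. Genes named were all called genes, the largest 15 block calls each way of at least 1 CPM with separate groups, up to 4 list members of smallest p, and Tgfbr1, Xist, Uty, Krt17, Cym, Apob and Nt5e. Others were chosen after their values were seen, and 1 gene is not reported here. Promoters came from RefSeq, and gene coordinates from GENCODE M21 on GRCm38 by Ensembl ID.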

Additional observations from a re-analysis of the deposited data

How the results depend on the processing

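The count of called genes depended on how the numbered libraries were treated. It was 0 without the replicate block and 14 with it. It was 153 in the 4 female libraries with the block, 8 with edgeR's likelihood ratio test and 6 with DESeq2. It was 0 with limma-voom, RLE size factors, no filter on low counts, a filter of 1 CPM, or the 4 female libraries without the block. Leaving out 1 library gave 0 without the block and 1 to 25 with it. The 14 genes were higher in mutants in each of these alternatives in which they were tested, except Rtkn2 without mutant 1. They had been picked as higher in these same libraries, so this shared direction is no independent support.

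Of the genes named, 23 changed sign when 1 library was left out, and the cause was not tested. Their log2 differences ran for Col1a1 from -0.14 to 0.10, Col4a3 from -0.053 to 0.80, Epcam from -0.11 to 0.023, Foxj1 from -0.43 to 0.065, Hc from -0.054 to 1.37, Ifi44 from -0.38 to 2.02, Itgb6 from -0.021 to 0.77, Msln from -1.10 to 0.0093, Muc5b from -0.47 to 3.10, Myh6 from -0.23 to 3.07, Nkx2-1 from -0.12 to 0.10, Rrm2 from -1.10 to 0.047, Rtkn2 from -0.0024 to 1.53, Scd1 from -0.088 to 1.33, Scgb1a1 from -1.04 to 0.79, Sftpc from -0.20 to 0.33, Sftpd from -0.43 to 1.52, Smad3 from -0.042 to 0.34, Smad7 from -0.041 to 0.63, Tgfb1 from -0.11 to 0.28, Tgfb3 from -0.23 to 0.033, Tgfbr2 from -0.00092 to 0.20 and Xist from -0.16 to 0.23. None of these genes except Rtkn2 passed the threshold with the block over all 8 libraries. Krt17, Apob, Slc39a2, Trp63 and Reg3g had few reads in controls, which limits their precision.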
